A study of Mus musculus with 4 samples.

Results

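The expression of 10 hypothalamic neuropeptide genes was examined in neurons derived from mouse embryonic stem (ES) cells. The genes are Pomc, Agrp, Hcrt, Ghrh, Trh, Avp, Oxt, Gal, Cartpt and Kiss1, taken by symbol from a list of peptides known from hypothalamic neurons. All 10 were among the 34968 symbols shared by the 4 libraries, and 6 of them passed a filter of at least 1 TPM in at least 2 libraries, as did 12975 genes in all. Both lines descend from a parental ES line of C57/BL6 strain carrying Dlx6-Cre and the Ai9 tdTomato reporter, so that tdTomato marks cells that have expressed the Cre of a Dlx6 driver. Both lines carry a Nestin-driven Nkx2-1 transgene that also makes a tetracycline transactivator, which drives Dlx2 in the N/D line and Dlx2 with St18 in the N/D/S line. Both lines were grown for 12 days as free-floating embryoid bodies (EBs), first with the Wnt inhibitor XAV-939 and later with the hedgehog agonist SAG. The tdTomato+ cells were then sorted for RNA. Each line gave 2 libraries, numbered replicate 1 and 2. The lines were expanded from selected clones, and whether the replicates are separate differentiations is not given in the labels, so p-values measure only the spread between these libraries.

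Hypothalamic neuropeptides are made as larger precursors, which are cut by proprotein convertases in dense-core vesicles and released as short peptides. Nkx2-1 is known as a patterning factor of both the medial ganglionic eminence (MGE) and the ventral hypothalamus, where it is required for arcuate neurons such as those that make Pomc, Agrp and Ghrh. The peptides of this set act on feeding (Pomc, Agrp, Cartpt, Gal), on pituitary release (Ghrh, Trh), on water balance and social behaviour (Avp, Oxt), on arousal (Hcrt) and on the reproductive axis (Kiss1). Cartpt and Gal are also known from neurons outside the hypothalamus.

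The values are TPM, transcript abundances scaled to transcript length and to a fixed total per library, so levels of different genes can be set side by side. The library labelled N/D replicate 1 stood apart, with 13426 genes above 0 and 17118 to 20750 in the rest. Among genes that reached 1 TPM in all 3 remaining libraries, it listed 21.9% at 0, whereas the same share was at most 0.329% for any other library. A value of 0 there is therefore given only as listed at 0. St18 did not separate the lines, ranging from 15.9 to 44.4 TPM in N/D/S and from 26.6 to 28.5 TPM in N/D, so which libraries carry induced St18 rests on the labels. Nkx2-1 ranged from 16.5 to 48.6 TPM and Dlx2 from 71.1 to 259 TPM over the 4 libraries. Fewer cells of a type and less RNA per cell cannot be told apart in such libraries.

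Several members share sequence with other genes, which bears on how far their TPM can be read. Avp and Oxt are neighbours on chromosome 2 of GRCm38, from 130580620 to 130582554 on the minus strand and from 130576173 to 130577054 on the plus strand. They encode vasopressin and oxytocin, each followed by its neurophysin carrier. From the start codon to the end of the peptide, their coding sequences (GENCODE M21) are shown here with the 9 codons of the mature peptide in capitals. These are the bases that tell both hormones apart, and they lie at chr2:130582446-130582541 for Avp and chr2:130576210-130576293 for Oxt, without introns.
Avp: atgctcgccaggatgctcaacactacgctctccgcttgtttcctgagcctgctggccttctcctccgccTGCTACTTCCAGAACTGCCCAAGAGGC
Oxt: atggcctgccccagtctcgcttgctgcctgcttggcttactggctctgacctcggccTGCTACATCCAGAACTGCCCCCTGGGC
Of the 27 bases in capitals 5 differ, in 3 of 9 codons.

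Downstream, within the coding part, both transcripts hold an identical run of 127 bases, at bases 144 to 270 of the Avp transcript and 156 to 282 of the Oxt transcript. It is shown because a read that lies inside it cannot be assigned to either gene by its sequence.
Shared run of Avp and Oxt: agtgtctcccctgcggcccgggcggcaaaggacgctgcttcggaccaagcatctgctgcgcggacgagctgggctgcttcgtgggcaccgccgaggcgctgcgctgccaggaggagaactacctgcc
Of the 31-base words of Avp, the word length used by default in kallisto, 97 of 547 also occur in Oxt. Oxt shares 111 of its 507 words with other genes, 97 of them with Avp and 14 with transcripts of 32 further genes. Kiss1 is the extreme case, since 749 of its 749 words also occur in Golt1a or the overlapping Gm28040 on the same strand. Agrp shares 84 of 981 words with Ctcf, whose exons overlap it on the opposite strand, and with Gm5914. Pomc shares 2 of 1398 words, and Hcrt, Ghrh, Trh, Gal and Cartpt share none. Values of Avp, Oxt, Agrp and Kiss1 are thus uncertain, since the division of shared reads between genes, and the use of strand, are not given in the sources used here.

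Levels of the members spanned a wide range, with Cartpt highest and Hcrt lowest on the mean of log2(TPM + 1), with values listed at 0 entered as 0. Cartpt was above Pomc, the next member, in 4 of 4 libraries, with a mean difference of 3.29 ± 2.87 (SD, n = 4 libraries) on that scale. Pomc, Gal, Trh and Ghrh followed at means of 3.25, 3.10, 2.82 and 2.47, and then Agrp at 0.98, Oxt at 0.79, Avp at 0.66, Kiss1 at 0.16 and Hcrt at 0.021. Of the 9 neighbouring pairs in this order, the mean difference was above its SD over the libraries in 2, Cartpt over Pomc and Ghrh over Agrp (1.48 ± 1.42, SD, n = 4). In the other 7 pairs it was not. With N/D replicate 1 left out, Cartpt remained highest, its excess over Pomc was 1.95 ± 1.21 (SD, n = 3 libraries), and Gal, at a mean of 4.13, stood above Pomc at 3.92, a gap smaller than its SD. Cartpt made up 99.6% of the summed TPM of the 10 members in N/D replicate 1, but 30.8% in the other N/D library, and 67.2% and 34.2% in replicates 1 and 2 of N/D/S. Trh was above Cartpt in N/D/S replicate 2.

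**Figure D1:**
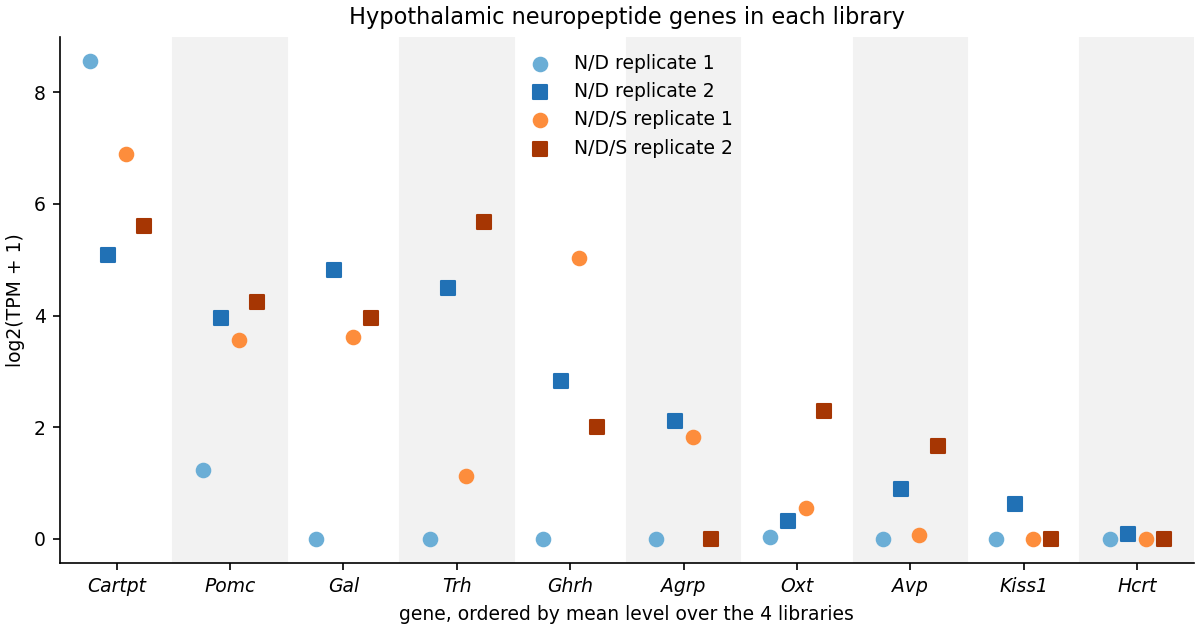
Level of each of the 10 genes in each of the 4 libraries, as log2(TPM + 1), with genes ordered by their mean. Circles are replicate 1 and squares replicate 2, with N/D in blue and N/D/S in orange. Cartpt is high in every library, while in N/D replicate 1 the points of 7 genes lie at 0.

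Pomc, the precursor of the melanocortins and beta-endorphin, lies on the plus strand of chromosome 12 from 3954951 to 3960642. Its TPM in replicates 1 and 2 was 10.8 and 17.8 for N/D/S, and 1.34 and 14.5 for N/D. Its level was similar in 3 libraries and low in N/D replicate 1, and the lines overlapped. In those 3 libraries Pomc was above 60.5% to 70.8% of the genes detected, and in N/D replicate 1 it was above 43.8%. Fold changes are given throughout on log2(TPM + 1) as N/D/S relative to N/D, and that of Pomc was 1.31, with a standard error of 1.21 and a Benjamini-Hochberg adjusted p of 1 in the limma model. Without N/D replicate 1 it was −0.059, so the direction rests on that library.

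Agrp, the melanocortin antagonist made by neurons that promote feeding, is annotated on the minus strand of chromosome 8 from 105566698 to 105637393. Agrp had 2.54 TPM in N/D/S replicate 1, had 3.33 TPM in N/D replicate 2, and was listed at 0 in the other 2 libraries. The lines overlapped. The log2 fold change was −0.15 (standard error 1.21), and it was −1.20 if N/D replicate 1 was left out, but 0.91 if N/D replicate 2 was and 0.77 if N/D/S replicate 2 was. Cartpt, whose peptide reduces feeding, lies on the minus strand of chromosome 13 from 99898489 to 99901091. Its TPM in replicates 1 and 2 was 118 and 47.5 for N/D/S, and 378 and 33.1 for N/D. In N/D replicate 1 it exceeded 96.2% of the genes above 0, and in N/D replicate 2 76.9%. Both N/D/S values lay between the N/D values, so the lines overlapped. The log2 fold change was −0.58, with a standard error of 1.38 and a Benjamini-Hochberg adjusted p of 1 in the limma model. It turned to 1.16 when N/D replicate 1 was left out, and to 0.073 when N/D/S replicate 2 was.

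Gal encodes galanin and lies on the minus strand of chromosome 19 from 3409915 to 3414544. Galanin transcripts stood at 11.2 and 14.6 TPM in replicates 1 and 2 of N/D/S, and at 27.3 TPM in N/D replicate 2, while N/D replicate 1 listed the gene at 0. The N/D/S values again lay between those of N/D. The log2 fold change was 1.38 (standard error 1.60) with all libraries and −1.03 without N/D replicate 1.

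Ghrh, which releases growth hormone from the pituitary, lies on the minus strand of chromosome 2 from 157329497 to 157347506. Ghrh stood at 31.5 and 3.03 TPM in replicates 1 and 2 of N/D/S, and at 6.13 TPM in N/D replicate 2, while N/D replicate 1 listed it at 0. The value of N/D/S replicate 1 stood above the other libraries, and the lines overlapped. The log2 fold change of 2.10 (standard error 1.46) was the largest of the 6 members tested, with an unadjusted p of 0.193 in the limma model and of 1 after Benjamini-Hochberg adjustment. Left without N/D replicate 1 it was 0.68, and left without N/D/S replicate 1 it was 0.59.

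Trh, the releasing hormone of thyrotropin, lies on the minus strand of chromosome 6 from 92242061 to 92244650. Trh stood at 1.19 and 49.9 TPM in replicates 1 and 2 of N/D/S, and at 21.4 TPM in N/D replicate 2, while N/D replicate 1 listed it at 0. Both replicate 2 libraries were high, N/D/S replicate 1 was low, and the lines overlapped. The log2 fold change was 1.16 with a standard error of 1.95 and a Benjamini-Hochberg adjusted p of 1 in the limma model. It turned to −1.09 when N/D replicate 1 was left out, and to −1.11 when N/D/S replicate 2 was.

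The pluripotency markers moved with Trh. Both replicate 2 libraries were above both replicate 1 libraries for 4 of 4 of them, an order that Pomc, Avp and Gal also had and that 12.8% of the 23608 genes above 0 in any library shared. Dppa5a had 164 TPM in N/D replicate 2 and 266 TPM in N/D/S replicate 2, against 3.03 TPM in N/D/S replicate 1 and a value of 0 listed in N/D replicate 1. Pou5f1, the pluripotency factor also called Oct4, had 7.55 TPM (N/D) and 19.5 TPM (N/D/S) in the replicate 2 libraries. In the replicate 1 libraries it was listed at 0 (N/D) and had 0.0881 TPM (N/D/S). Zfp42 had 9.26 and 3.55 TPM in the same replicate 2 libraries and 0.26 TPM in N/D/S replicate 1, and it was also listed at 0 in N/D replicate 1. The summed TPM of the list ranged from 0.25 to 184 in N/D and from 3.50 to 291 in N/D/S. The astrocyte and oligodendrocyte markers, among them Mbp and Aldh1l1, were likewise higher in both replicate 2 libraries for 5 of 6 genes, with summed TPM from 0 to 145 in N/D and from 17.1 to 49.9 in N/D/S. The part of such cells in the Trh values was not tested. In other lists the same order held for 6 of 20 hypothalamic transcription factors, 5 of 21 other hypothalamic peptides and 3 of 7 genes of precursor processing. It held for 0 of 8 telencephalic factors and 0 of 10 neuronal and GABAergic markers.

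**Figure D2:**
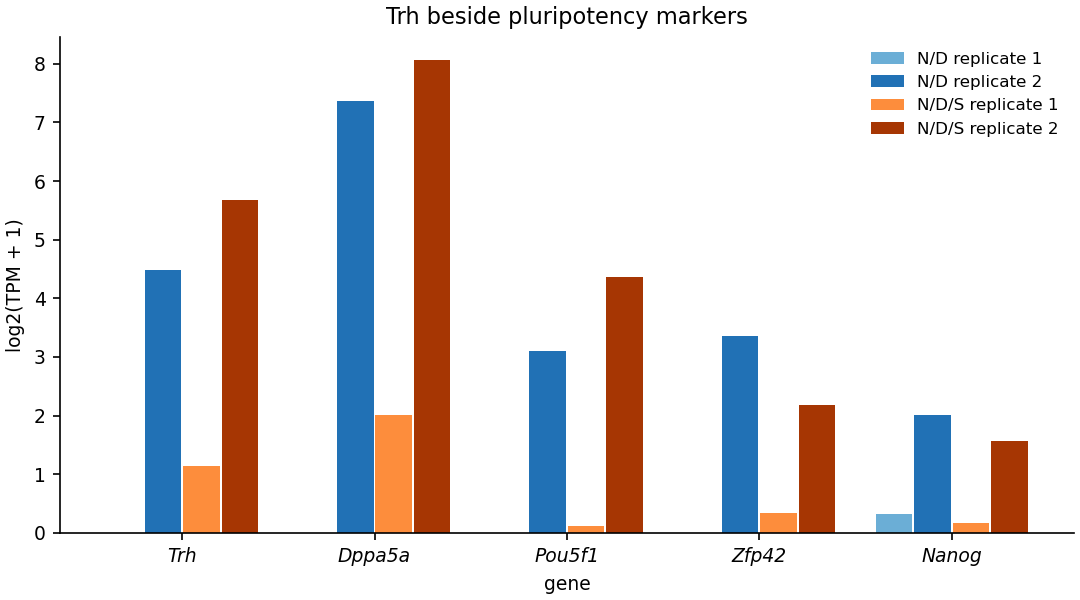
Bars give log2(TPM + 1) of Trh and of 4 pluripotency markers in each of the 4 libraries. For each gene both replicate 2 libraries, N/D in dark blue and N/D/S in dark orange, exceed both replicate 1 libraries.

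The remaining members were near or below 1 TPM in most libraries and did not pass the filter. With no filter, their unadjusted limma p was 0.208 for Oxt, 0.358 for Kiss1, 0.633 for Avp and 0.716 for Hcrt, and each was 1 after Benjamini-Hochberg adjustment. Avp stood at 0.0489 and 2.17 TPM in replicates 1 and 2 of N/D/S, and at 0.855 TPM in N/D replicate 2, while N/D replicate 1 listed it at 0. Oxt stood at 0.459 and 3.88 TPM in replicates 1 and 2 of N/D/S, and at 0.0195 and 0.244 TPM in those of N/D. Both reached 1 TPM only in N/D/S replicate 2. The difference in log2(TPM + 1) was 0.42 for Avp and 1.25 for Oxt, and with N/D replicate 1 left out it was −0.025 and 1.10. With N/D/S replicate 2 left out it was −0.38 for Avp and 0.37 for Oxt, and with N/D/S replicate 1 left out it was 1.22 and 2.12, while with N/D replicate 2 left out Avp was at 0.87. Oxt was the only member for which both N/D/S libraries lay above both N/D libraries, 1 of 10 members, and 7.51% of the 23608 genes with a value above 0 in any library did so. The reverse, both N/D/S libraries below both N/D libraries, held for 0 of 10 members and 6.54% of those genes. Hcrt, whose peptides (orexins) mark neurons of the lateral hypothalamus, lies on chromosome 11 from 100761069 to 100762931. It had 0.0598 TPM in N/D replicate 2 and was listed at 0 elsewhere. Kiss1, on chromosome 1 from 133321875 to 133329901, had 0.541 TPM in N/D replicate 2 and was listed at 0 elsewhere. With both N/D/S libraries listed at 0, no fold is given for either, and their differences in log2(TPM + 1) were −0.042 for Hcrt and −0.31 for Kiss1.

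Across the comparison of the lines, 0 of the 6 members tested had a limma p below 0.05 after Benjamini-Hochberg adjustment, as did 0% of the 12975 genes. At an unadjusted p under 0.05 there were 0 of 6 members and 0.0617% of all genes. The median log2 fold change was 1.23 over the 6 members that passed the filter and 0.26 over all genes tested. With N/D replicate 1 left out, both medians changed sign, to −0.55 and −0.29. They were 3.03 and 0.88 with N/D replicate 2 left out, 1.07 and 0.020 with N/D/S replicate 1 left out, and 0.87 and 0.57 with N/D/S replicate 2 left out. With 2 libraries in each line, a two-sided exact permutation test cannot give a p below 0.333. Without N/D replicate 2, N/D is the single library N/D replicate 1, in which Gal, Ghrh and Trh are listed at 0. Their log2 fold changes were then 3.79, 3.52 and 3.40, and N/D is assumed to vary like the other line.

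**Figure D3:**
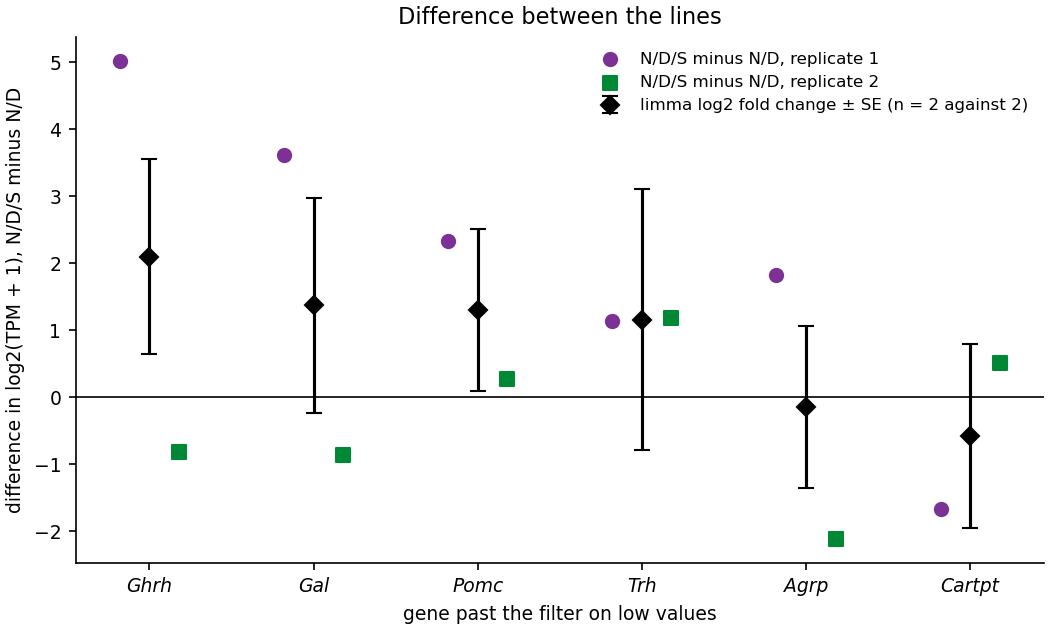
Difference in log2(TPM + 1) between N/D/S and N/D for the 6 genes that passed the filter. Diamonds are limma log2 fold changes with bars of 1 standard error, circles the difference within replicate 1 and squares that within replicate 2. The 2 differences have opposite signs for Ghrh, Gal, Agrp and Cartpt.

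Taken within a replicate number, the excess of N/D/S above N/D had opposite signs for 4 of the 6 members. In log2(TPM + 1) it was 5.02 in replicate 1 and −0.82 in replicate 2 for Ghrh, 3.61 and −0.86 for Gal, 1.82 and −2.11 for Agrp, and −1.66 and 0.51 for Cartpt. Pomc (2.33 and 0.28) and Trh (1.13 and 1.18) had the same sign in both. Except for Pomc and Cartpt, the differences in replicate 1 are against a value listed at 0 and depend on the pseudocount. Of the 5 members that reached 1 TPM in all libraries but N/D replicate 1, 3 (Gal, Ghrh and Trh) were listed at 0 there, against 21.9% of 11051 genes.

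Set side by side by replicate number, a choice made after the values were seen, both replicate 2 libraries were above both replicate 1 libraries for Pomc, Trh, Avp and Gal, 4 of 10 members, against 12.8% of the 23608 genes. Cartpt alone had both replicate 1 libraries above both replicate 2 libraries, 1 of 10 members, against 13.3% of those genes. The deposited files with the same replicate number hold the same number of symbols (35197 in replicate 1 and 35204 in replicate 2), and the labels do not say whether a number marks a shared differentiation or sequencing run.

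Of 7 genes of precursor processing, 2 were listed at 0 in N/D replicate 1. Of the 7, 7 were tested and 0 passed the threshold in either direction, with a median log2 fold change of 0.27 against 0.26 over all genes. It was −0.46 or 0.37 with replicate 1 or 2 of N/D left out, and 0.58 or 0.46 with replicate 1 or 2 of N/D/S left out. Cpe, the carboxypeptidase that trims basic residues, had 955 and 292 TPM in N/D/S, against 478 and 875 TPM in N/D, in replicate order. Scg5, a chaperone of the convertase Pcsk2, ranged from 342 to 401 TPM, and Pcsk1n, an inhibitor of Pcsk1, from 139 to 417 TPM. The convertases themselves were lower, with Pcsk2 at 8.58 to 23.9 TPM and Pcsk1 at 1.71 to 2.88 TPM in 3 libraries and listed at 0 in N/D replicate 1. Among 7 genes of dense-core vesicles, 7 were tested, 0 passed the threshold and the median was 0.034, and it was −0.75 or 0.43 with replicate 1 or 2 of N/D left out, and −0.22 or 0.27 with replicate 1 or 2 of N/D/S left out. Scg2 had 89.7 to 298 TPM, Scg3 49.7 to 155 TPM and Chga 77.1 to 108 TPM over the 4 libraries, so these granins were abundant in each.

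The receptors for the member peptides were low. Of 15 receptor genes, 3 were tested (Hcrtr2, Avpr1a and Kiss1r), 0 passed the threshold and their median log2 fold change was 0.51. It was 0.33 or 1.65 with replicate 1 or 2 of N/D left out, and 1.00 or 0.021 with replicate 1 or 2 of N/D/S left out. Hcrtr2, an orexin receptor, had 3.09 and 1.43 TPM in N/D/S, against 6.91 and 1.47 TPM in N/D, and was the only receptor above 0 in N/D replicate 1. Avpr1a reached 3.88 TPM and Kiss1r 3.92 TPM. Galr2, a galanin receptor that did not pass the filter, reached 4.87 TPM in N/D/S replicate 2. Mc3r, Ghrhr, Avpr1b and Avpr2 were listed at 0 in every library.

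Among 21 other peptides made in the hypothalamus, 8 were tested, 0 passed the threshold and the median was 0.90 with all libraries. It was −0.34 or 1.90 with replicate 1 or 2 of N/D left out, and 0.97 or 0.60 with replicate 1 or 2 of N/D/S left out. Sst, a peptide also of MGE interneurons, had 444 and 224 TPM in N/D/S, against 277 and 421 TPM in N/D. Npy, a partner of Agrp in arcuate neurons but also known from interneurons, had 554 and 148 TPM in N/D/S, against 434 and 228 TPM in N/D. Npy stood above every member in each library, and Sst did so in 3 of 4, since Cartpt was higher in N/D replicate 1. Penk, an opioid precursor, reached 50.4 TPM. Nmu, Galp and Ucn3 were listed at 0 in every library.

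Transcription factors of hypothalamic neurons were examined beside those of the telencephalon. Of 20 hypothalamic factors 12 were tested, 0 passed the threshold and the median was 0.94 with all libraries, −0.37 or 2.17 with replicate 1 or 2 of N/D left out, and 1.01 or 1.10 with replicate 1 or 2 of N/D/S left out, while 11 of 20 were listed at 0 in N/D replicate 1. Isl1, a factor of arcuate neurons that is also used in the striatum and in cholinergic neurons, had 151 and 20.3 TPM in N/D/S, against 1.26 and 63.2 TPM in N/D. Six6 had 4.78 and 40.2 TPM in N/D/S, against 0.00409 and 61.5 TPM in N/D, and Six3 had 18.7 and 18.9 TPM in N/D/S, against 2.06 and 29.8 TPM in N/D. Gsx1 and Hmx2, known as factors of Ghrh neurons, were each listed at 0 in N/D replicate 1, and in the other 3 libraries Gsx1 had 1.78 to 3.61 TPM and Hmx2 1.72 to 7.07 TPM. Otp, a factor of neurons that make Avp, Oxt and Trh, had 9.32 and 0.0358 TPM in N/D/S, against 5.76 and 0.395 TPM in N/D, so it was higher in the replicate 1 libraries of both lines. Sim1, which acts with Otp, was at no more than 0.0693 TPM, and Nr5a1, which marks the ventromedial nucleus, at no more than 0.0722 TPM.

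The 8 telencephalic and ganglionic eminence factors were above 0 in every library. All were tested, 0 passed the threshold and the median was 0.32. It was −0.34 or 0.96 with replicate 1 or 2 of N/D left out, and −0.18 or 0.71 with replicate 1 or 2 of N/D/S left out. Dlx1 had 97.9 to 520 TPM and Dlx5 136 to 206 TPM. Summed over each list, the hypothalamic factors had 28.3 TPM against 504 TPM for the telencephalic factors in N/D replicate 1, and 220 against 1211 TPM in the other N/D library. For replicates 1 and 2 of N/D/S the sums were 251 against 1366 TPM, and 137 against 631 TPM. The telencephalic sum was the larger in 4 of 4 libraries, but the list holds Nkx2-1 and Dlx2, which are driven by transgenes, and Dlx6, whose driver marks the sorted cells. Over the 5 other telencephalic factors it was 405 and 942 TPM for replicates 1 and 2 of N/D, and 1039 and 445 TPM for those of N/D/S. Whether these 5 depend on the transgenes or the sort was not tested, so the sums do not compare regional identity.

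**Figure D4:**
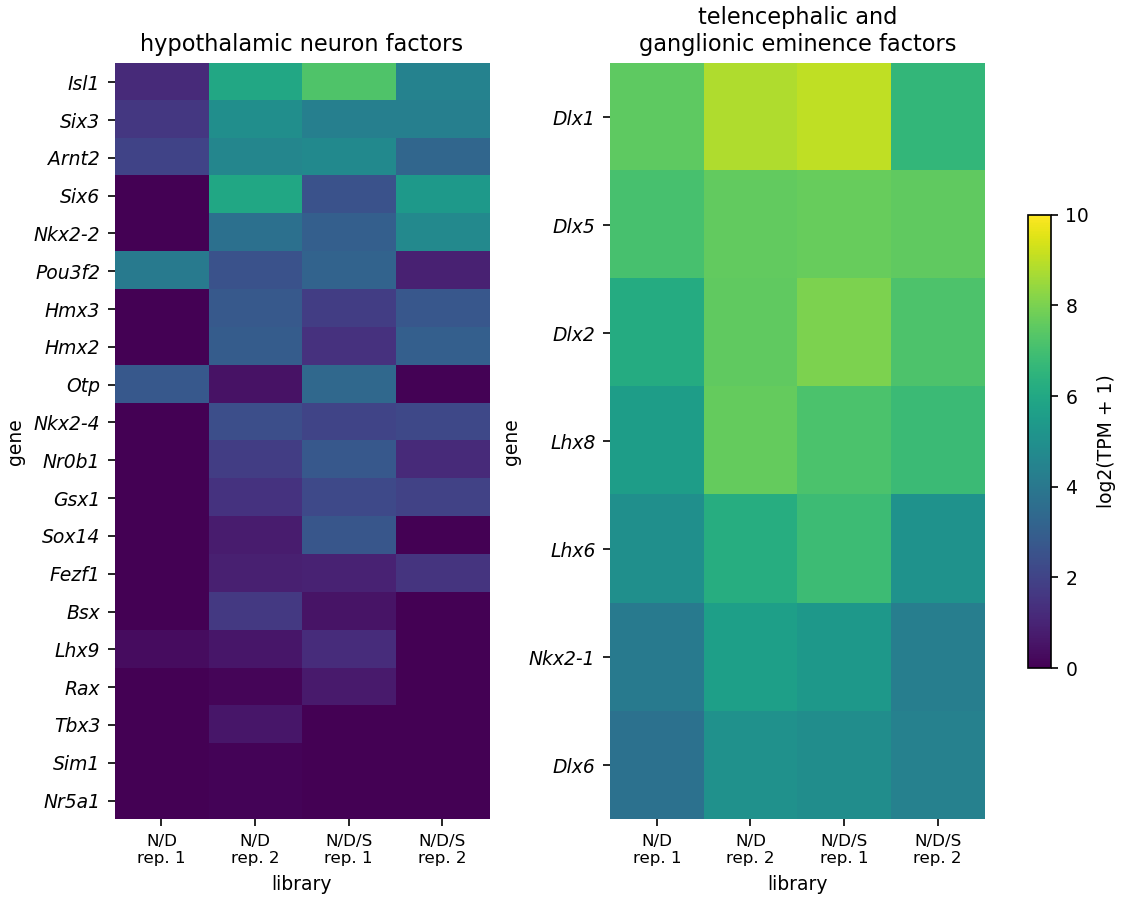
Colour gives log2(TPM + 1) of 20 hypothalamic factors on the left and 7 of the 8 telencephalic factors on the right, 1 row per gene and 1 column per library. In the right panel every gene is above 0 in every library, with the lowest value 3.72, for Dlx6 in N/D replicate 1. On the left, the column of N/D replicate 1 is dark for most genes.

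Neuronal and GABAergic markers were read as a check of the sorted cells and were above 0 in every library. Of 10 genes 10 were tested and 0 passed the threshold, with a median of −0.35. It was −0.62 or −0.20 with replicate 1 or 2 of N/D left out, and −1.14 or 0.43 with replicate 1 or 2 of N/D/S left out. Tubb3 had 1509 to 2774 TPM, Stmn2 606 to 1631 TPM and Map2 80.5 to 361 TPM. Markers of other cells were also read. The 6 progenitor and cell cycle markers were led by Vim at 78.3 to 219 TPM, Sox2 at 14.5 to 86.3 TPM and Hes5, which reached 69.2 TPM and was listed at 0 in N/D replicate 1. Hes5 had a log2 fold change of 3.77 with a standard error of 1.55, a limma p of 0.0446 and a Benjamini-Hochberg adjusted p of 1. With N/D replicate 1 left out, the difference was 1.49. Of 5 glutamatergic markers Slc17a6 was tested, at 18.4 and 0.73 TPM in N/D/S, against 13.8 and 2.44 TPM in N/D, with Neurod6 at most 3.53 TPM and Slc17a8 at most 1.26 TPM. Of 5 mesenchymal and endothelial markers, 3 were tested, with Pecam1 from 2.41 to 38.8 TPM, Col3a1 at most 18.2 TPM and Col1a1 at most 7.40 TPM. Across these lists and those of pluripotent and glial cells, 0 genes passed the threshold. Pituitary markers, relevant because the pituitary also makes Pomc, summed to 0.0983 to 2.80 TPM. Of their 7 genes 0 were tested, Lhx3 was at most 2.39 TPM and Pou1f1 at most 0.23 TPM, and Tbx19, the factor of pituitary Pomc cells, and Gh were listed at 0 in every library.

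The upstream sequences of the members were read for the short motifs of the factor families induced in these lines. RefSeq promoters (GRCm38.p6, 250 bases before to 50 after a gene's start) were found for 9 of the 10 members, with 2 starts for Ghrh, and Agrp was not matched. TAATTA, a core bound by many homeodomain factors including the Dlx family, occurred in 2 of these 10 windows, those of Pomc and of the start of Ghrh at the lower coordinate, and in 5.29% of all 32851 windows. CAAGTG, a core of the NK2 family, occurred in 0 of 10 and in 13.6% of all windows. AAAGTTT, a core of the Myt1 family to which St18 belongs, occurred in 0 of 10 and in 4.74% of all. TATAAA occurred in 3 of 10, Pomc, Hcrt and the same Ghrh start, and in 13.6% of all. Both strands were searched, and no match of a pair of motifs overlapped in the windows shown. The 250 bases upstream of Pomc (chr12:3954695-3954944, plus strand) and of that Ghrh start (chr2:157337427-157337676, minus strand) are shown because both hold TAATTA and TATAAA, which stand in capitals.
Pomc: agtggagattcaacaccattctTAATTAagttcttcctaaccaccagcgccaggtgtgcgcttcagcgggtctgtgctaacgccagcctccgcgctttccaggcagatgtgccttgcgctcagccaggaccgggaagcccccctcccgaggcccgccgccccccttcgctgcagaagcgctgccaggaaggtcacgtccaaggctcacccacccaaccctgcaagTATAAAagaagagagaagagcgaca
Ghrh: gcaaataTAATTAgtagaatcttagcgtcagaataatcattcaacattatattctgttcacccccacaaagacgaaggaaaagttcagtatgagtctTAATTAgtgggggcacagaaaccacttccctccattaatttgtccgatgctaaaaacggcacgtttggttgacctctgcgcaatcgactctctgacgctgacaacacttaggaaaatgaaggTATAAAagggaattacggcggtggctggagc
TAATTA begins 228 bases before the start of Pomc and 243 and 153 bases before that of Ghrh. TATAAA begins 25 and 31 bases before them.

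For each tested member, the gene whose log2(TPM + 1) followed it most closely over the 4 libraries was Plekhg5 for Pomc, Fam117a for Agrp, Gtf3c1 for Ghrh, Siva1 for Trh, Actl6b for Gal and E030024N20Rik for Cartpt. Pearson's r was above 0.99 in each case. With only 4 libraries such values are common, since between 31 (Cartpt) and 352 (Pomc) of the 12974 other genes reached an r above 0.99 with a given member.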

How the data were processed

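The data are bulk RNA-seq values of sorted tdTomato+ neurons, with 2 libraries for each of 2 ES cell lines. Reads were assigned to mouse transcripts by pseudoalignment with kallisto 0.44.0, and the submitters' processing notes also name GRCm38 and sleuth. The release of the transcriptome is not given in the sources used here. The authors deposited 1 TPM value per gene symbol and library, which scales abundance by transcript length and by the total of the library. How transcripts were joined into genes is not given. Depth cannot be read from TPM, so intervals and detection limits are left out.

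Rows with symbols turned into dates (26 per file) were dropped, and 34968 symbols common to the 4 files were kept. The 12975 genes reaching 1 TPM in 2 or more libraries were tested with limma 3.58.1 in R 4.3.3 on log2(TPM + 1), without covariates, with Benjamini-Hochberg adjustment and a threshold of 0.05. The plan had foreseen either counts or TPM, of which the latter applied. The script was checked on simulated data. The 10 member genes and 13 other lists were chosen with earlier results of these data known. Genes named are the members, the 3 genes of each other list with the highest mean TPM, any past the threshold, listed factors and markers at 0 in every library, the gene most like each tested member, and the induced genes. Other listed genes were named after their values were seen. They are Pcsk1, Pcsk2, Galr2, Gsx1, Hmx2, Otp, Sim1, Nr5a1, and receptors and peptides at 0 in every library. Results for some listed genes are not reported here by name. Gene models and 31-base words came from GENCODE M21 (GRCm38) and promoters from RefSeq (GRCm38.p6). Python 3.11.15, pandas 2.3.3 and matplotlib 3.10.9 served for tables and figures. Alternatives were other pseudocounts, filters and scalings, limma's variance trend, a replicate block, and each library left out.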

Additional observations from a re-analysis of the deposited data

How the results depend on the processing

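The 136 alternative values covered 12 results, the 10 members, the number of genes past the threshold and the number of listed genes past it. With all libraries kept, 84 values held, either on the same side of the threshold with the same sign or within the spread between libraries, and 4 did not. Those 4 were a pseudocount of 0.1, which set the log2 differences of genes below the filter at −0.34 for Hcrt, −1.34 for Kiss1 and 2.88 for Oxt (values with a pseudocount of 1 −0.042, −0.31 and 1.25), as follows from taking logs of values near 0, and limma's variance trend, under which 6 genes passed, 0 of them members (Adgrg1, Blcap, Gm10925, Mtx1 and Pdxp higher and Gm12338 lower, named after their values were seen). At an unadjusted p under 0.05 there were 202 genes higher and 22 lower with the trend, against 3 higher and 5 lower without it. A pseudocount of 0.1 also set the log2 fold change at 2.96 for Gal, 2.45 for Trh and 3.66 for Ghrh. Pomc was then at 1.605, Agrp at −0.19 and Cartpt at −0.58. All of these count among the values that held.

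With a library left out, 31 values held, 8 reversed, 6 moved (4 single values beyond the spread and both counts), and 3 kept their sign and newly passed the threshold. The values ranged from −0.059 to 2.67 for Pomc, −1.20 to 0.91 for Agrp (0.77 without N/D/S replicate 2), −1.11 to 3.43 for Trh (−1.09 without N/D replicate 1, but 3.40 without N/D replicate 2), −1.03 to 3.79 for Gal, −2.32 to 1.16 for Cartpt (0.073 without N/D/S replicate 2), 0.59 to 3.61 for Ghrh, −0.38 to 1.22 for Avp, 0.37 to 2.12 for Oxt, −0.084 to 0 for Hcrt and −0.62 to 0 for Kiss1. Genes past the threshold ranged from 0 to 2373 and listed genes past it from 0 to 14, the highest without N/D replicate 2, when adjusted p from limma was 0.00966 for Gal, 0.0176 for Ghrh (3.52) and 0.0224 for Trh. Those highest counts are out of 12975 genes and 80 listed genes tested, so listed genes did not pass more often than all genes. In that fit N/D is the single library N/D replicate 1. The cause was not tested.

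The median log2 fold change over the tested genes, 0.26, became −0.049 with quantile normalization, 0.24 with median-of-ratios and 0.29 with the upper quartile, and the 6 tested members kept their direction under each. Quantile normalization moved Pomc to 0.46, Gal to 0.57, Trh to 0.68, Agrp to −0.57 and Cartpt to −0.35. With at least 1 TPM in every library, Pomc and Cartpt alone were tested. For members that failed the filter, quantile normalization, the variance trend and the replicate block were not run. With a replicate block, 0 genes passed the threshold and 9 had an unadjusted p under 0.05, and the Trh log2 fold change of 1.16 had a standard error of 1.26. Deviations of same-numbered libraries from the line means had a correlation of 0.0197 across genes. With 2 libraries in each line this cannot decide whether the numbers pair the libraries, and the main fit did not pair them. Depth is unknown, so its effect on the members listed at 0 was not assessed.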
